A study of Homo sapiens with 6 samples.

Results

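The genes for mitochondrial ribosomal proteins were examined in human adrenocortical cancer cells grown with or without doxycycline. Members were taken by name: every gene whose platform symbol was MRPL or MRPS followed by digits and, in some, a final letter A to C. Pseudogenes were left out. This gave 75 of the 19775 genes with a value, 48 named MRPL and 27 named MRPS. Where a gene had several probe sets, the one with the highest mean over the 6 arrays stood for it. MRPS24 and MRPL53 were measured only by probe sets that also list another gene, and have no value here.

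RNA was measured on 6 arrays. The cells, H295R/TR SF-1, derive from the adrenocortical carcinoma line H295R and carry an SF-1 transgene that doxycycline switches on. SF-1, encoded by NR5A1, is the nuclear receptor that controls steroid hormone production. The 3 arrays labelled Dox were from cells given doxycycline at 1 µg/mL for 72 h, and the 3 labelled basal were from cells kept for 72 h without it. Both groups were this same subclone, and no array was from cells given doxycycline without the transgene, so an effect of the drug and one of SF-1 cannot be told apart. The study calls the arrays of a condition biological replicates and names no pairing. Arrays are numbered here within each label in the order of deposition.

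The mitochondrial ribosome translates the few proteins encoded by mitochondrial DNA, all of them subunits of the respiratory chain or ATP synthase. Its proteins are made from nuclear genes and imported, and assemble with RNA from the mitochondrial genome into a large subunit, which forms the peptide bonds, and a small subunit, which reads the codons. Some of these proteins have counterparts in bacterial ribosomes and others hold places that occur only in mitochondrial ribosomes. Tetracyclines such as doxycycline stop bacterial ribosomes by blocking the entry of aminoacyl-tRNA on the small subunit, and they inhibit translation in mitochondria as well. By their place in the ribosome 50 members belonged to the large subunit, MRPS18A and MRPS30 among them, and 25 to the small subunit, and 45 had a bacterial counterpart while 30 were specific to mitochondria.

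The induced gene did not separate the labels over all 6 arrays. NR5A1 had log2 signals of 5.55, 6.21 and 6.41 in the arrays labelled Dox and of 5.84, 5.92 and 6.30 in those labelled basal. The groups overlapped, and the difference was 0.03 (exact permutation p = 1, two-sided, n = 3 each, where 0.1 is the smallest p possible). Without Dox 1 and basal 3 the difference of NR5A1 was 0.43 ± 0.13 (SE, limma adjusted p = 0.0808). That follows in part from the choice, since Dox 1 was the lowest of the Dox arrays and basal 3 the highest of the basal arrays. Whether its single probe set detects the transgene is not stated. The array labelled Dox 1 was nearly the same as basal 1, with an SD of 0.13 between them over all probe sets, and Dox 2 was nearly the same as basal 3 (SD 0.15). In both pairs 0 probe sets differed by 2-fold. The titles of Dox 1 and basal 1 spell out the treatment while those of the 4 other arrays are codes, a difference called label style here. Whether a label is wrong was not tested. Dox 3 and basal 2 stood apart from these 4 arrays and differed from each other with an SD of 0.32. The median signal of 10 genes of steroidogenic adrenocortical cells was between 8.86 and 9.66 in the Dox arrays and between 8.98 and 9.55 in the basal arrays. That of 9 markers of endothelial, blood, stromal and medullary cells was between 5.33 and 5.44 in the Dox arrays and between 5.30 and 5.43 in the basal arrays. The list median lay below every array's own median, but not each marker did. COL1A1 (7.76 to 8.17), CHGA (6.11 to 6.34) and PECAM1 (6.01 to 6.36) lay above it in all 6 arrays, and the other markers below. Of the steroidogenic genes, INHA (5.09 to 5.29) lay below it in all 6 arrays, and MC2R, HSD3B2 and NR5A1 in some. Single steroidogenic genes moved in opposite directions without Dox 1 and basal 3. The differences were -1.40 for HSD3B2 (limma adjusted p = 0.000513), -0.54 for STAR (adjusted p = 0.00226) and 0.68 for SULT2A1 (adjusted p = 0.00205). Over all 6 arrays they were -0.48, -0.17 and 0.27 (limma unadjusted p = 0.498, 0.495 and 0.335), and the labels overlapped. In the left-out arrays the signs were reversed, with HSD3B2 and STAR higher in Dox 1 than in basal 3 and SULT2A1 lower. The small p-values of these genes therefore depend on which arrays were left out. CYP11A1, which starts steroid synthesis, had signals of 10.48, 10.91 and 11.90 in the Dox arrays and 10.54, 11.66 and 10.82 in the basal arrays, highest in Dox 3 and basal 2. Dox 1, basal 1, Dox 2 and basal 3 were each close to an array of the opposite label, so closeness does not choose between them. Results are also given without Dox 1 and basal 3, a choice that came from these data. Leaving out Dox 2 and basal 1 instead gave a difference of -0.13 for NR5A1.

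The promoters of the members were searched for the letters of 4 transcription factor sites, since all of these nuclear genes serve 1 ribosome. RefSeq start sites on GRCh38.p14 were available for 67 of the 75 members, with 83 windows of 300 bases, 250 before and 50 after each start. MRPL2, MRPL10, MRPL13, MRPL15, MRPL21, MRPL23, MRPL35 and MRPS28 had none. The letters were GCATGCGC for NRF1 (nuclear respiratory factor 1, a regulator of nuclear genes for mitochondria), CCGGAAG for ETS factors such as GABP, AAGATGGCG for YY1 and CAAGGTCA for SF-1, each on both strands. None of these strings contains another, although matches to the NRF1 letters on opposite strands can overlap one another. ETS letters were in 29 of 67 members (43.3%), against 36.7% of 49 cytosolic ribosomal protein genes and 16.6% of 15384 measured genes. YY1 letters were in 12 members (17.9%), against 6.12% of the cytosolic set and 3.23% of measured genes. NRF1 letters were in 6 members (8.96%), against 6.12% and 4.88%. Counted by window, ETS letters were in 38.6% of the members' windows and 12.9% of 21490 windows of measured genes.

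SF-1 letters were in a single member, MRPL34 (1.49%), against 1.35% of measured genes. Any of the NRF1, ETS and YY1 strings was in 38 members and none of them in 29. This joint count was not made for measured genes, so it is not shown to be particular to the members. ETS and YY1 letters stood together in 4 members, with MRPL38, MRPS10 and MRPS18A among them. Matches were counted in each window, so a site in overlapping windows of a gene, as in MRPS22, counted more than once. Of the 43 ETS matches in members, 30 (69.8%) lay within 100 bases before the start, against 55.1% of the matches in measured genes. Of the 13 YY1 matches 9 (69.2%) lay after the start, against 63.2%. These are matches of letters and not shown binding.

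**Figure D1:**
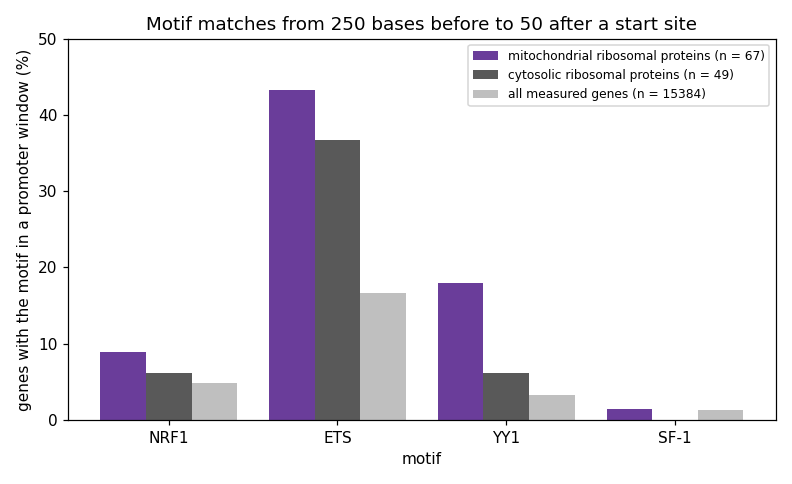
Share of genes (%, vertical axis) with each motif in at least 1 promoter window, for mitochondrial ribosomal protein genes (n = 67), cytosolic ribosomal protein genes (n = 49) and all measured genes (n = 15384). The ETS bar of the mitochondrial set stands at 43.3% and the YY1 bar at 17.9%, above the 16.6% and 3.23% of measured genes.

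Windows are printed for 7 of the members named in the results, with matched letters in capitals. MRPL41 (chr9:137551629-137551928, plus strand) held none of the strings and is shown because it gave the single call in a later comparison. MRPL34 (chr19:17292323-17292622, plus strand) held the SF-1 letters at position -174 from the start in this 1 of its windows. Its difference between the labels was the most negative of the members, but the groups overlapped (limma unadjusted p = 0.253). A link between the letters and the difference was not tested. MRPL38 (chr17:75904835-75905134, minus strand) held ETS letters on the opposite strand and YY1 letters at position 7 after the start. MRPS10 (chr6:42217812-42218111, minus strand) held ETS letters at -22 and YY1 letters at 10.
MRPL41: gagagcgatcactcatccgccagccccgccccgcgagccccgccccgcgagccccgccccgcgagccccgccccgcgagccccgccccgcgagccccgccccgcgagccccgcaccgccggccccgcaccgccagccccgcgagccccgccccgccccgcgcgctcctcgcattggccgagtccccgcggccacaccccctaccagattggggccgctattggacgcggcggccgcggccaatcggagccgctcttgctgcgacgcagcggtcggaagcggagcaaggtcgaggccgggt
MRPL34: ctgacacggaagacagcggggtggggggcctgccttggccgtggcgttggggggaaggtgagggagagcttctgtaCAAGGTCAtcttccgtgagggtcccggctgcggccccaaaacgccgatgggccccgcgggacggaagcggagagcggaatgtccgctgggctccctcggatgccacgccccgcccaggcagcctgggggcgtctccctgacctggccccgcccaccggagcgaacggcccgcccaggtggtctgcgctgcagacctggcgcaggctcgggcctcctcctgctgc
MRPL38: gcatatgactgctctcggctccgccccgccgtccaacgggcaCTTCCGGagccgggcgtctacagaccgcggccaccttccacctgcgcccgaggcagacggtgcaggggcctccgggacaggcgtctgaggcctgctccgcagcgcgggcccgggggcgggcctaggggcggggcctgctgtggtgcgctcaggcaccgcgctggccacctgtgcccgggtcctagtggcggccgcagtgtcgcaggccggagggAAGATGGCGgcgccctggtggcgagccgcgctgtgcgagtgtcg
MRPS10: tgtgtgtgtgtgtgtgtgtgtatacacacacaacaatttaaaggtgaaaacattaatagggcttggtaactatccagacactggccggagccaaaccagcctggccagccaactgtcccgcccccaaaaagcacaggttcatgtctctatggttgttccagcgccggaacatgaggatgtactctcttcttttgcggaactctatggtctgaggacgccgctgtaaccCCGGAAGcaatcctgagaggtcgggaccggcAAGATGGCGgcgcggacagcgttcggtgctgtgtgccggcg

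The 3 paralogs MRPS18A, MRPS18B and MRPS18C, which share a protein family with bacterial S18, are printed to set their starts side by side. MRPS18C was counted here as the bacterial counterpart, and MRPS18A and MRPS18B, which hold other places in the ribosome, as specific to mitochondria. MRPS18A (chr6:43687742-43688041, minus strand) had ETS letters at -31 and YY1 letters at 10. MRPS18B (chr6:30617590-30617889, plus strand) had NRF1 letters at -23 and YY1 letters at 24. MRPS18C (chr4:83455808-83456107, plus strand) had ETS letters at -222 and NRF1 letters on the opposite strand at -136.
MRPS18A: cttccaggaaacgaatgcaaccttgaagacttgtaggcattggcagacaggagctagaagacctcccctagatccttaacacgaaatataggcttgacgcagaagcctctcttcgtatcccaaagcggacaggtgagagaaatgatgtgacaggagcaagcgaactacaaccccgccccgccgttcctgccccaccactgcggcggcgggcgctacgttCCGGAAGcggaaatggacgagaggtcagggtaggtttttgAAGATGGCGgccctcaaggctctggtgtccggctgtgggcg
MRPS18B: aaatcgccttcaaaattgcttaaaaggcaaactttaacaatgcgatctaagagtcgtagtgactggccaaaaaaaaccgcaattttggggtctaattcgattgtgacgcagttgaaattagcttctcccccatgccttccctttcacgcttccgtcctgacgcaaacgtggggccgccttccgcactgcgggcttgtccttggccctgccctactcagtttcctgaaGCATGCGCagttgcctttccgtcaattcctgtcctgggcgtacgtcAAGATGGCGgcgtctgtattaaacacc
MRPS18C: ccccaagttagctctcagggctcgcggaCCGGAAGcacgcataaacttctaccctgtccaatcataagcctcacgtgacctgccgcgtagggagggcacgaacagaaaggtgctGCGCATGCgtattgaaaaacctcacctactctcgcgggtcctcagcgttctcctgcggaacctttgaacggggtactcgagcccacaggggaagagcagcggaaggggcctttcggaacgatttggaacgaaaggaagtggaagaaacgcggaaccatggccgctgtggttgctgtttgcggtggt

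By their brightest probe sets, all 75 members were above the typical signal of the arrays. Their 450 log2 signals lay between 7.41 (MRPL38 in Dox 1) and 12.77 (MRPL41 in Dox 2), all above the median of every array, which was between 5.56 and 5.60 over all probe sets. Over genes, each also by its brightest probe set, the median was between 6.77 and 6.84. Some dimmer sets of members lay below the array medians, such as 1 of MRPL39 with a mean of 3.76. Signals of different probe sets depend on their probes, so their order is not one of RNA amount. MRPL41, MRPL51, MRPL57 and MRPL33 had the brightest probe sets and MRPL38, MRPL44, MRPL19 and MRPL2 the dimmest. MRPL51, a mitochondria-specific protein of the large subunit, had signals of 12.46, 12.54 and 12.40 in Dox 1, 2 and 3 and of 12.49, 12.45 and 12.55 in basal 1, 2 and 3. All 6 arrays were close together and the groups overlapped. MRPL44, a large subunit protein related to RNase III, had signals of 7.85, 8.09 and 7.58 in the Dox arrays and 7.98, 7.66 and 8.05 in the basal arrays. The lowest of each label were Dox 3 and basal 2.

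**Figure D2:**
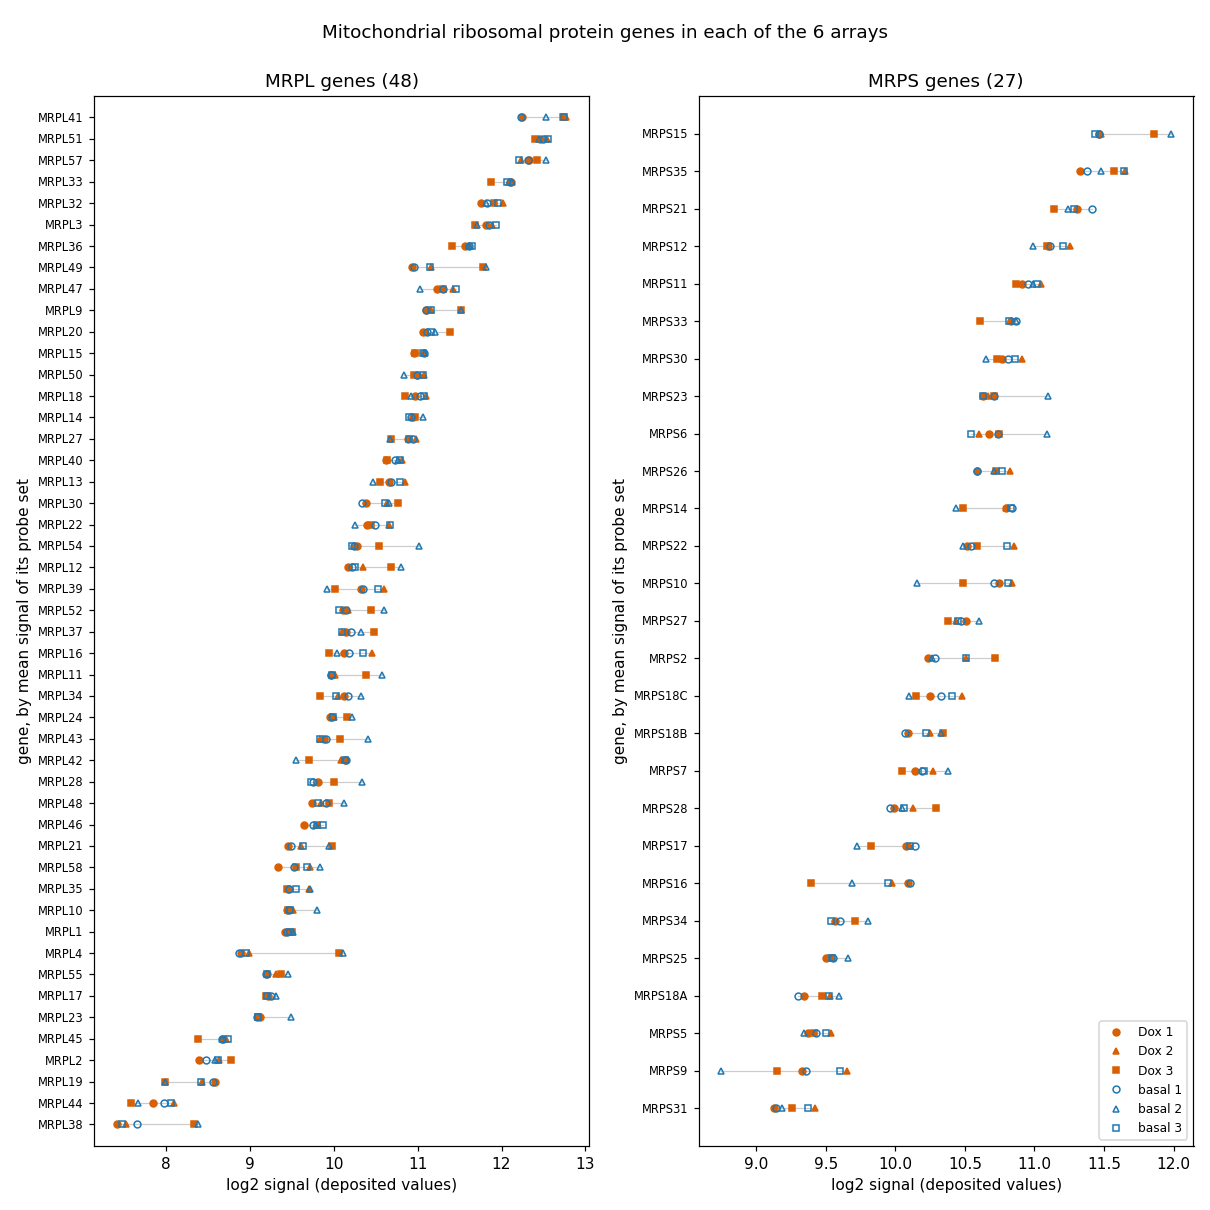
Log2 signal (horizontal axis) of each of the 48 MRPL genes and 27 MRPS genes in the 3 arrays labelled Dox (filled) and the 3 labelled basal (open), with genes in the order of mean signal of their probe set. The symbols of both labels overlap in every row, and the widest row is MRPL4, with a range of 1.24.

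Between the labels, no member passed the test. Of 75 members 0 passed an adjusted p of 0.05 (limma with Benjamini-Hochberg over all genes), against 0 of 19775 genes (0%). At an unadjusted p under 0.05, limma passed 0 members and 109 genes, and an equal-variance test passed 0 members and 258 genes. The median difference of Dox minus basal was -0.02 over members, on the log2 scale, and -0.0005 over all genes. Of the members 31 were positive and 44 negative, so that 41.3% were positive, against 49.8% of all genes. Differences ranged between -0.17 (MRPL34) and 0.14 (MRPS9). The median size without sign was 0.044, against 0.068 over all genes and 0.062 over the 7609 genes in the members' range of mean signal. The labelled groups overlapped in all 75 members: in 0 did every Dox array lie above every basal array, against 1.49% of all genes, and in 0 below, against 1.68%.

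The intervals hold for the groups as labelled and say nothing of doxycycline if a label is wrong. The 95% interval of the difference lay within 2-fold in either direction for 74 of 75 members (98.7%), against 94.6% of all genes. The exception was MRPL4, whose interval ran between -1.03 and 1.04. With the standing apart of Dox 3 and basal 2 entered as a block, all 75 intervals lay within 2-fold, against 97.1% of all genes. That block came from these data. The 48 MRPL genes had a median difference of -0.02, with 17 positive and 31 negative, and the 27 MRPS genes one of 0.01, with 14 positive and 13 negative.

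**Figure D3:**
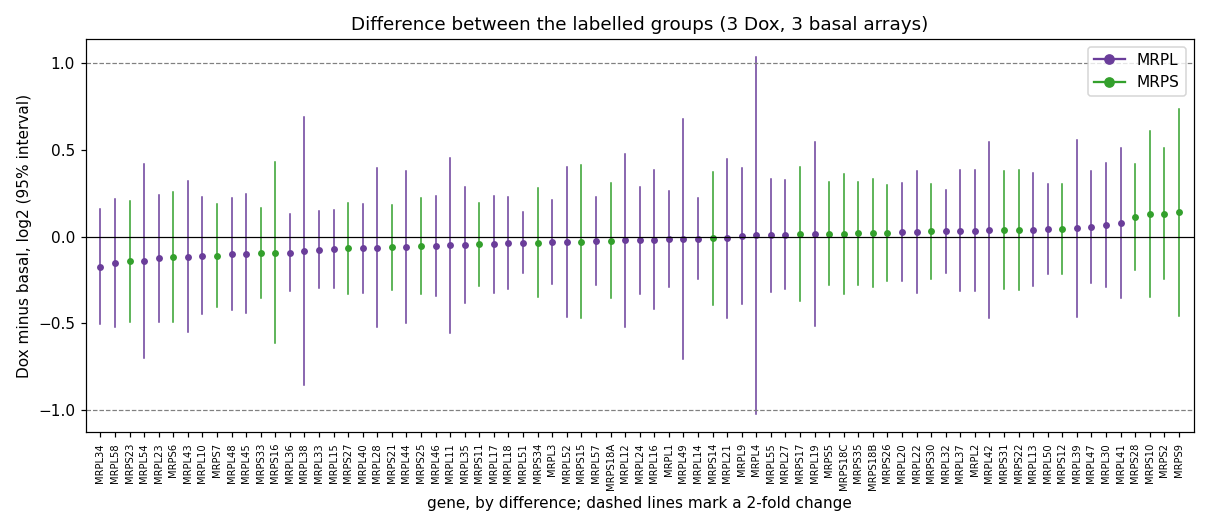
Difference of the Dox minus the basal mean (points, log2, vertical axis) with its 95% interval from limma (lines) for the 75 genes in order of difference, with MRPL and MRPS genes in separate colours. Every interval includes 0, and only that of MRPL4 crosses the dashed lines of a 2-fold change.

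In the large subunit, the most negative difference was that of MRPL34, the counterpart of a small bacterial protein of the same subunit. Its signals were 10.12, 10.05 and 9.84 in the Dox arrays and 10.17, 10.32 and 10.03 in the basal arrays. Dox 3 was the lowest and basal 2 the highest, while Dox 1 and Dox 2 lay within the basal range. The difference was -0.17 ± 0.14 (SE, n = 3 each, limma adjusted p = 1, unadjusted p = 0.253). MRPL58, a peptidyl-tRNA hydrolase that became part of the large subunit, had signals of 9.33, 9.71 and 9.55 in the Dox arrays and 9.53, 9.83 and 9.68 in the basal arrays. Dox 1 was lowest and basal 2 highest, and the groups overlapped, with a difference of -0.15 ± 0.16 (SE). MRPL54, which is specific to mitochondria, had signals of 10.27, 10.24 and 10.54 in the Dox arrays and 10.24, 11.01 and 10.22 in the basal arrays. Its difference of -0.14 rested on basal 2 alone, and without that array it was 0.12.

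MRPL23, whose bacterial counterpart lies at the exit of the peptide tunnel, had the same dependence on 1 array. Its signals were 9.11, 9.09 and 9.09 in the Dox arrays and 9.08, 9.49 and 9.10 in the basal arrays. Only basal 2 was apart, and the difference of -0.13 was 0.0086 without it. Among positive differences, MRPL41 had 0.08 and MRPL30, a counterpart of a bacterial large subunit protein, 0.07. MRPL41, a mitochondria-specific protein of the large subunit, had signals of 12.25, 12.77 and 12.73 in the Dox arrays and 12.24, 12.54 and 12.75 in the basal arrays. Both labels held 1 array near 12.24 and 1 near 12.75, those of the near-identical pairs, so the remaining contrast was Dox 3 over basal 2.

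In the small subunit, the largest positive differences were those of MRPS9, MRPS2, MRPS10 and MRPS28, 3 of which are counterparts of bacterial proteins with the same numbers. MRPS9 had signals of 9.33, 9.65 and 9.15 in the Dox arrays and 9.36, 8.75 and 9.60 in the basal arrays. Basal 2 was the lowest array, 0.40 below Dox 3, the difference was 0.14 ± 0.25 (SE), and without basal 2 it was -0.10. MRPS10 had signals of 10.75, 10.84 and 10.49 in the Dox arrays and 10.71, 10.15 and 10.81 in the basal arrays. Basal 2 was again lowest, and the difference of 0.13 ± 0.20 (SE) was -0.07 without it. MRPS2 had signals of 10.23, 10.51 and 10.71 in the Dox arrays and 10.28, 10.26 and 10.51 in the basal arrays. Dox 3 was the highest and Dox 1 the lowest of the 6, with a difference of 0.13 ± 0.16 (SE).

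MRPS28 kept a positive sign whichever array was left out, between 0.03 and 0.19. Its signals were 9.99, 10.13 and 10.29 in the Dox arrays and 9.96, 10.05 and 10.06 in the basal arrays. Dox 1 lay below 2 basal arrays, so the groups overlapped, and the difference was 0.11 ± 0.13 (SE). On the negative side were MRPS23, a mitochondria-specific protein, with -0.14 ± 0.15 and MRPS6, a counterpart of bacterial S6, with -0.12 ± 0.16 (SE). MRPS6 had signals of 10.68, 10.60 and 10.74 in the Dox arrays and 10.74, 11.09 and 10.55 in the basal arrays. Basal 2 was the highest and basal 3 the lowest, and all 3 Dox arrays lay between them. MRPS23 had 10.63, 10.67 and 10.71 in the Dox arrays and 10.71, 11.10 and 10.63 in the basal arrays, again with basal 2 alone above the rest.

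The MRPS18 paralogs all lay close to no difference. MRPS18A, which sits in the large subunit despite its name, had signals of 9.34, 9.53 and 9.47 in the Dox arrays and 9.30, 9.59 and 9.52 in the basal arrays. The labels overlapped throughout, with a difference of -0.02 and an interval between -0.35 and 0.31. MRPS18B and MRPS18C, both of the small subunit, had differences of 0.02 each, with intervals between -0.29 and 0.33 for MRPS18B and between -0.33 and 0.36 for MRPS18C.

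Different probe sets of a member did not always move alike. Of the 75 members 38 had 1 probe set and 37 had several, in all 140 probe sets. In 14 of the 37 every probe set had a difference of the same sign, and in 23 the signs were mixed. The same share was not counted over other genes, so this is not shown to be particular to the members. All 140 differences lay between -0.17 and 0.32, and 0 reached 2-fold. The highest was the dimmer probe set of MRPL39, a mitochondria-specific protein, with signals of 4.0, 4.22 and 3.52 in the Dox arrays and 4.03, 2.98 and 3.79 in the basal arrays. These lie below the array medians, and the brighter set of MRPL39 differed by 0.05. MRPL42 had sets with 0.04, -0.15 and 0.22, and MRPS10 had 0.13, -0.10 and -0.11.

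The SD over members between a pair of arrays was between 0.124 and 0.379 within a label and between 0.038 and 0.375 across labels. Over the 6 arrays the median range of a member was 0.37, against 0.45 for all genes and 0.52 for genes in the members' range of signal. A range over 2-fold was found in 1 of 75 members (1.33%), against 9.29% and 12.9%. That member was MRPL4, whose bacterial counterpart lines the peptide tunnel, with signals of 8.89, 8.99 and 10.06 in the Dox arrays and 8.87, 10.11 and 8.95 in the basal arrays. Dox 3 and basal 2 were over 1 log2 unit above the 4 others, and the groups overlapped fully, with a difference of 0.01. Another MRPL4 probe set had 8.18, 8.50 and 9.15 in the Dox arrays and 8.29, 9.35 and 8.39 in the basal arrays. The dimmest had 7.99, 8.25 and 8.14 in the Dox arrays and 8.12, 8.13 and 8.16 in the basal arrays, so the step of Dox 3 and basal 2 was present in 2 of 3 sets.

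Dox 3 and basal 2 also held the extremes of MRPL38 and MRPL49, both mitochondria-specific proteins of the large subunit. MRPL38 had signals of 7.41, 7.52 and 8.33 in the Dox arrays and 7.65, 8.38 and 7.47 in the basal arrays. MRPL49 had signals of 10.94, 11.16 and 11.78 in the Dox arrays and 10.95, 11.82 and 11.15 in the basal arrays. In both, Dox 3 and basal 2 were above all others. MRPL19, a counterpart of a bacterial large subunit protein, went the other way, with 8.59, 8.42 and 7.99 in the Dox arrays and 8.56, 7.98 and 8.41 in the basal arrays. MRPS16, whose bacterial counterpart acts in small subunit assembly, had signals of 10.09, 9.98 and 9.39 in the Dox arrays and 10.11, 9.69 and 9.95 in the basal arrays, with Dox 3 lowest and basal 2 next.

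Set against the other arrays of its label, Dox 3 differed by a median of -0.02 over members, and by between -0.65 (MRPS16) and 1.12 (MRPL4). Basal 2 differed by a median of 0.04, and by between -0.73 (MRPS9) and 1.20 (MRPL4). Over 0.5 in size were 5 members in Dox 3 (6.67%, against 17% of all genes) and 14 in basal 2 (18.7%, against 21.2%). Both arrays departed in the same direction in 59 of 75 members (78.7%), 32 upward and 27 downward. The same held for 74.1% of all genes, 7411 upward and 7235 downward, and for 80.8% of the 7864 genes at or above the dimmest member's level, 2300 upward and 4052 downward. Across members, r between both departures was 0.824, which is a description over genes that share the same arrays. Both departures were upward by over 0.5 in 3 members, MRPL4, MRPL38 and MRPL49, and downward by over 0.5 in MRPL19. Of large subunit members 24 were upward and 16 downward in both, and of small subunit members 8 and 11. Of members specific to mitochondria 16 were upward and 9 downward, and of those with a bacterial counterpart 16 and 18.

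**Figure D4:**
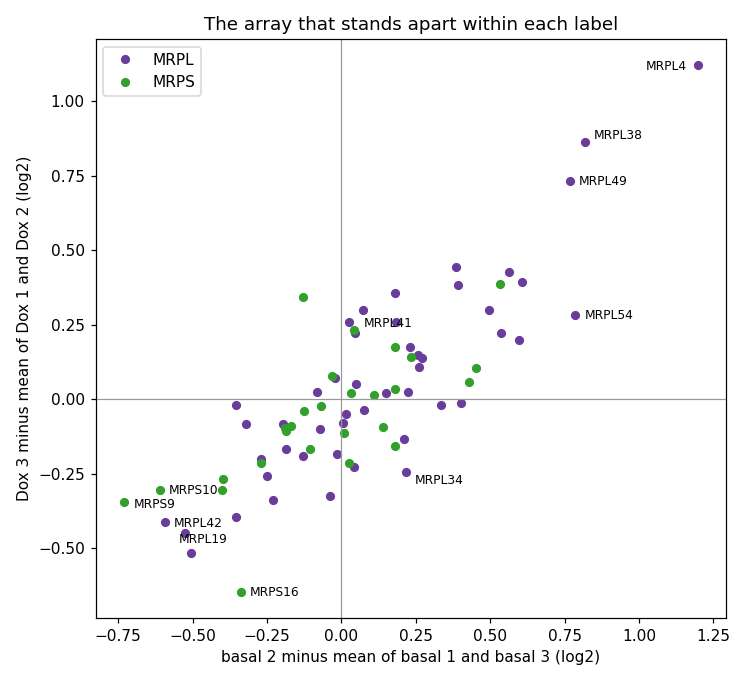
Departure of Dox 3 from the mean of Dox 1 and Dox 2 (vertical axis, log2) against that of basal 2 from the mean of basal 1 and basal 3 (horizontal axis, log2), 1 point per gene. Points run from lower left to upper right, with MRPL4 at 1.12 and 1.20, and 59 of 75 lie in the quadrants where both have the same sign.

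The near-identical pairs gave small differences of opposite sign over the members. Dox 1 minus basal 1 had a median of -0.03, with 20 members positive and 55 negative, and an SD of 0.054 over members. Of all genes 9210 were positive and 10494 negative. Dox 2 minus basal 3 had a median of 0.03, with 59 positive and 15 negative, and an SD of 0.038. Of all genes 10647 were positive and 9084 negative. Across these pairs, Dox 2 minus basal 1 had a median of 0.06, with 54 positive and 21 negative, against 9667 positive and 10074 negative of all genes. Dox 3 minus basal 2 had a median of -0.05, with 31 positive and 44 negative, between -0.48 (MRPL34) and 0.45 (MRPS2). Of all genes 9570 were positive and 10157 negative. So the sign of the members as a group depended on which Dox array was set against which basal array.

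With Dox 1 and basal 3 left out and the standing apart of Dox 3 and basal 2 as a block, Dox 2 and Dox 3 were compared with basal 1 and basal 2. Both the block and the choice of arrays came from these data, so these p-values do not stand as independent evidence. Leaving out Dox 2 and basal 1 instead gave 0 calls and a median member difference of -0.06, with 13 positive and 62 negative. Without Dox 1 and basal 3, 1 of 75 members was higher at a limma adjusted p under 0.05, against 3.42% of all genes, and 0 were lower, against 3.58%. At an unadjusted p under 0.05 there were 7 members, against 3422 of 19775 genes. The median over members was 0.0087, and all 75 intervals lay within 2-fold, against 96.9% of all genes. The member called was MRPL41, with 0.37 ± 0.08 (SE, n = 2 each, limma adjusted p = 0.0225). It was higher in both pairs of arrays, by 0.54 for Dox 2 minus basal 1 and by 0.20 for Dox 3 minus basal 2. In the left-out arrays the sign was reversed, with 12.25 in Dox 1 and 12.75 in basal 3. A like step lay within each label, with Dox 2 (12.77) above Dox 1 and basal 3 above basal 1 (12.24). The call therefore depends on which arrays were left out.

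The call of MRPL41 rested on its brightest probe set. Its 4 other sets gave 0.45, 0.42, 0.37 and -0.01 for Dox 2 minus basal 1, and 0.08, -0.14, -0.40 and -0.36 for Dox 3 minus basal 2. On the mean of all 5 sets the difference was 0.12 (limma adjusted p = 0.726), and without the mean-variance trend in the variances the adjusted p was 0.176. Next in size upward were MRPS9 with 0.35 (limma adjusted p = 0.0994) and MRPS2 with 0.34 (adjusted p = 0.0801). Downward were MRPL34 with -0.30 (adjusted p = 0.172) and MRPS6 with -0.24 (adjusted p = 0.207). With only probe sets meant to match a single gene, 44 members were tested and the single call was MRPS2, with 0.34 (limma adjusted p = 0.0451), in place of MRPL41.

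Other genes of mitochondrial translation were set beside the members, from lists by function. Between the labels 0 genes were called in every list. The median difference was -0.0025 over 57 cytosolic ribosomal protein genes, 0.0086 over 14 mitochondrial translation factors, -0.0017 over 20 assembly factors of the mitochondrial ribosome and 0.03 over 15 mitochondrial aminoacyl-tRNA synthetases. It was 0.05 over 9 genes that transcribe and copy mitochondrial DNA. The 4 measured ribosomal proteins with other names had a median of -0.03, among them DAP3 of the small subunit, with signals of 11.48, 11.52 and 11.41 in the Dox arrays and 11.52, 11.58 and 11.50 in the basal arrays.

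With Dox 1 and basal 3 left out, 12 of 14 translation factors, 13 of 15 synthetases and 8 of 9 genes for mitochondrial DNA had a positive difference, against 40 of 75 members and 48.4% of all genes. Over all 6 arrays these counts were 7 of 14, 10 of 15 and 6 of 9, against 31 of 75 members and 49.8% of all genes. The left-out arrays went the other way. As a median deviation from each gene's mean over the 6 arrays, the translation factors stood at -0.05 in Dox 1 and 0.16 in basal 3. None of these 38 genes passed the adjusted threshold in either comparison. Examples without Dox 1 and basal 3 are GFM1, an elongation factor, with 0.25 (limma adjusted p = 0.148), and TFAM, which packages mitochondrial DNA, with 0.28 (adjusted p = 0.114). Among 11 genes of mitochondrial protein quality control, AFG3L2, a subunit of the inner membrane protease that processes MRPL32, was higher, with 0.50 ± 0.08 (SE, limma adjusted p = 0.00283). Its signals were 11.56, 11.999 and 11.90 in Dox 1, 2 and 3 and 11.58, 11.31 and 11.96 in basal 1, 2 and 3. Over all arrays the labels overlapped, since Dox 1 followed basal 1 and Dox 2 followed basal 3. Without Dox 1 and basal 3, HSPE1, the co-chaperonin of the mitochondrial matrix, was lower, with -0.30 ± 0.07 (SE, limma adjusted p = 0.0319). PPARGC1A, a coactivator of mitochondrial biogenesis, was lower too, with -0.51 ± 0.13 (adjusted p = 0.0381), at signals below the median of the arrays. Of 9 reference genes, TFRC was also lower there, with -0.30 (adjusted p = 0.0397). Over all 6 arrays the labels overlapped for HSPE1 and PPARGC1A, with differences of -0.06 and -0.27. HSPE1 was highest in Dox 1, at 12.29.

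Of the 7 measured transcripts encoded by mitochondrial DNA, which this ribosome translates, 6 had their highest signals in Dox 3 and basal 2. The exception was ND6, a subunit of complex I, with 8.29, 8.56 and 8.25 in the Dox arrays and 8.36, 8.39 and 8.61 in the basal arrays. As a median deviation from each gene's mean the 7 stood at -0.17, -0.13 and 0.28 in Dox 1, 2 and 3 and at -0.13, 0.23 and -0.10 in basal 1, 2 and 3. The members stood at -0.07, 0.05 and -0.03 in the Dox arrays and at -0.02, 0.04 and 0.04 in the basal arrays. COX1, a catalytic subunit of cytochrome c oxidase, had signals of 12.71, 12.72 and 13.52 in the Dox arrays and 12.67, 13.50 and 12.76 in the basal arrays. Dox 3 and basal 2 were higher than all others, so the labels overlapped, with 0 of the 7 called between them and a median difference of -0.02. Genes for mitochondrial DNA transcription and copying stood lowest in the same arrays, at -0.13 in Dox 3 and -0.28 in basal 2.

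**Figure D5:**
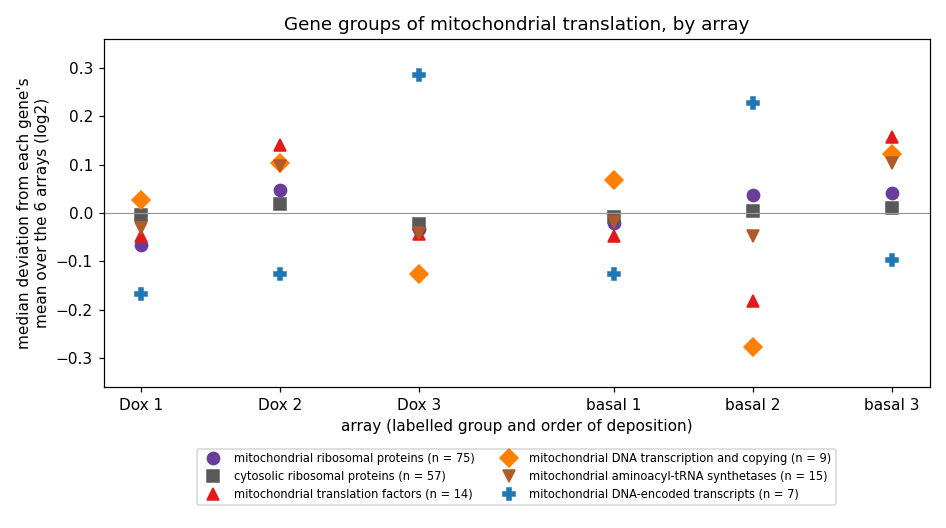
Median deviation of each gene group from the genes' own means over the 6 arrays (vertical axis, log2), by array, for the 3 arrays labelled Dox and the 3 labelled basal. Transcripts of mitochondrial DNA stand at 0.28 in Dox 3 and 0.23 in basal 2, while mitochondrial ribosomal proteins stay between -0.07 and 0.05.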

How the data were processed

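The deposited table, made by the authors from Affymetrix HG-U133 Plus 2.0 arrays, gives each probe set's signal as a log2 value. GCRMA, a method that models background from the probe's sequence, is named in the submitters' processing notes, and its version is not given in the sources used here. No source says if all 6 arrays went through it together. Of 54613 probe sets, 41091 listed 1 gene symbol and stood for 19775 genes. No filter or further scaling was applied, and precision is limited by having 3 arrays a group.

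All genes were fitted with limma 3.58.1 in R 4.3.3, using moderated variances that follow a mean-variance trend, and p-values were adjusted by Benjamini-Hochberg, two-sided, at 0.05. NR5A1 had an exact permutation test. The fits were tested on simulated data. Figures used matplotlib 3.10.9.

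Members and gene lists were chosen with earlier results of these data known. Members were named by signal, by size of difference in each direction, by range over the arrays, by calls, by disagreement of probe sets, and as MRPS18 paralogs. List genes were named by smallest p in either comparison. Control probe sets for RNA quality were not used here. Alternatives changed the probe set, variance model, filter, normalization, block, test and arrays.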

Additional observations from a re-analysis of the deposited data

How the results depend on the processing

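The 0 members called between the labels, and the 0 genes over the whole array, were unchanged by the mean of a gene's probe sets, probe sets matching a single gene, no trend, a filter at the median signal, quantile normalization, label style or array set as a block, the equal-variance test at the methods' thresholds and each array left out (0 and 0). Leaving out Dox 1 and basal 3 with the array set as a block gave 1 member and 1383 genes. The median member difference stayed between -0.04 and 0.0071 with an array left out and between -0.06 and 0.0087 otherwise. No paired analysis was possible because the labels give the groups no shared replicate numbers. Label style ties Dox 1 to basal 1 alone, and array set puts Dox 3 and basal 2 against the 4 others.

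In the comparison without Dox 1 and basal 3, alternatives chosen after seeing the data gave 0 members in place of 1 with the mean of probe sets, without the trend, with label style as a block and without a block. MRPL41 was 0.40 with quantile normalization (limma adjusted p = 0.00905), and 0.22 with label style as a block (adjusted p = 0.959).

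Of the 12 members with the largest labelled differences, 8 turned sign under some alternative. Without basal 2, MRPL23 was 0.0086, MRPL54 0.12, MRPS10 -0.071, MRPS23 0.00062, MRPS6 0.032 and MRPS9 -0.10. With each array left out, MRPL23 ranged between -0.20 and 0.0086, MRPL30 between -0.031 and 0.17, MRPL41 between -0.057 and 0.25, MRPL54 between -0.27 and 0.12, MRPS10 between -0.071 and 0.26, MRPS23 between -0.23 and 0.00062, MRPS6 between -0.24 and 0.032, MRPS9 between -0.10 and 0.32 and NR5A1 between -0.14 and 0.29. With the mean of probe sets MRPL41 was -0.031 and MRPS10 -0.025, and with probe sets matching a single gene MRPL23 was 0.013. Without Dox 2 and basal 1, MRPL30 was -0.052, MRPL41 -0.15 and NR5A1 -0.13, while without Dox 1 and basal 3 NR5A1 was 0.43. The causes were not tested.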

Other observations

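Probe sets that list a member together with another gene were not used above. That shared by MRPS24 and URGCP-MRPS24 had log2 signals of 12.79, 12.91 and 12.99 in the Dox arrays and 12.75, 12.95 and 12.88 in the basal arrays. That shared by MRPL53 and CCDC142 had 11.09, 11.15 and 10.94 in the Dox arrays and 11.13, 11.13 and 11.08 in the basal arrays. In both, the labels overlapped, and which gene gave the signal cannot be told apart.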
